A study of Mus musculus with 23 samples.

Results

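The 10 genes described here encode cytochrome P450 enzymes of the Cyp2a, 2b, 2d, 2e, 2f and 2j subfamilies: Cyp2a4, Cyp2a5, Cyp2b9, Cyp2b10, Cyp2b13, Cyp2d9, Cyp2d10, Cyp2e1, Cyp2f2 and Cyp2j5. They were listed by name with earlier results of these data known, so their counts beside the shares of all genes are descriptions. Matched on the gene symbol, they make up 10 of the 27179 genes in the count table. Another 18 genes of the same 6 subfamilies are in the table. Liver RNA of 15 female mice was sequenced, and the counts on genes summed to between 24742910 and 32262649 per mouse.

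All 15 mice carried Alb-Cre, a Cre recombinase driven by the albumin promoter and so active in hepatocytes and cells that derive from albumin-expressing precursors, and Trp53 flx/flx. The 6 Ctrl mice had wild-type Braf and Icmt flx/+. Per the design text, ABpIF/+ mice (n = 6) had BrafCA/+, the allele that yields the BrafV600E oncoprotein after Cre recombination, with Icmt flx/+. ABpIF/F mice (n = 3) had BrafCA/+ with Icmt flx/flx, so that both copies of Icmt, which methylates prenylated proteins such as RAS, were floxed. Individual genotype labels write BRAF +/+ for both ABpI groups, which goes against the design text. Every Ctrl mouse has floxed Trp53 and 1 floxed Icmt copy, so no group is a wild-type liver. ABpIF/F mice were rarely born, and the tissue was free of visible tumors. Per the study, ABpIF/F mice were taken at different ages and had liver tumors elsewhere in the organ, and which age belongs to which mouse is not given in the sources used here. The study also reports that ABpIF/+ mice lost weight after an early gain and looked ill, whereas Ctrl and ABpIF/F mice kept gaining weight. Illness and genotype therefore cannot be told apart in comparisons with ABpIF/+ mice. Strain labels differ as well: the Ctrl mouse BG3 shares the label of all ABpI mice, and the other 5 Ctrl mice carry another one. Apart from BG3, strain label and genotype cannot be told apart.

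Cytochromes P450 of family 2 are heme proteins of the endoplasmic reticulum that oxidize drugs, pollutants, steroids and fatty acids with electrons passed on by the reductase Por. Hepatocytes make most of these enzymes. Many are zoned along the liver lobule, Cyp2e1 around the central vein and Cyp2f2 around the portal vein. Cyp2a4, Cyp2b9 and Cyp2b13 are known as female-biased and Cyp2d9 as male-biased in mouse liver under growth hormone control, and Cyp2b10 is the classical target of the xenobiotic receptor CAR, the product of Nr1i3.

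Tissue and targeting were checked first. The hepatocyte gene Alb had between 76790 and 104893 CPM (read counts scaled to a common library size by TMM) in Ctrl mice and 100260 or more in every ABpIF/F mouse, of which BG38 lay within the Ctrl range. Icmt lay between 15.2 and 16.6 CPM in the ABpIF/F mice, below all other mice (27.8 to 37.4 CPM). Xist was present in every mouse, and of 4 Y chromosome genes Eif2s3y and Uty had 0 counts in all of them, while Ddx3y and Kdm5d had 1 read each at most, in Ctrl mice.

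Taken by their sum, the 10 genes held 1.28% of the scaled counts in Ctrl, 0.777% in ABpIF/+ and 0.406% in ABpIF/F livers. Calls needed an edgeR adjusted p below 0.01 together with a log2 fold change of 1 or more in size, that is 2-fold. In ABpIF/+ vs Ctrl 1 of the 10 genes was upregulated (Cyp2d9) and 5 were downregulated (Cyp2f2, Cyp2j5, Cyp2b10, Cyp2b13 and Cyp2e1). Among all genes tested 4.69% were upregulated and 5.35% downregulated, and among genes averaging 1 CPM or more 8.21% and 9.39%. In 9 of the 10 genes, all except Cyp2a5, ABpIF/+ and Ctrl mice did not overlap, as was the case for 15.9% of all genes and 31.3% of genes of at least 1 CPM. The median log2 fold change of the 10 was -1.08, against 0.02 for genes of at least 1 CPM.

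In ABpIF/F vs Ctrl 1 gene was upregulated (Cyp2d9) and 4 were downregulated (Cyp2f2, Cyp2a5, Cyp2j5 and Cyp2e1). The backgrounds were 4.55% upregulated and 2.38% downregulated among all genes tested, and 7.53% and 5.04% among genes of at least 1 CPM. Groups did not overlap in 6 of the 10, against 17.1% of all genes and 31.6% of genes of at least 1 CPM, and the median log2 fold change was -1.47. Both comparisons share the Ctrl mice. In ABpIF/+ vs ABpIF/F, where a positive value means higher in ABpIF/+, Cyp2a5 and Cyp2a4 were called higher in ABpIF/+ and Cyp2j5 lower. There the backgrounds were 1.76% higher and 5.49% lower among all genes, and 3.72% and 8.50% among genes of at least 1 CPM. Groups did not overlap in 4 of the 10, close to the 34.2% of genes of at least 1 CPM (18.7% of all genes). The median log2 fold change was -0.19.

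**Figure D1:**
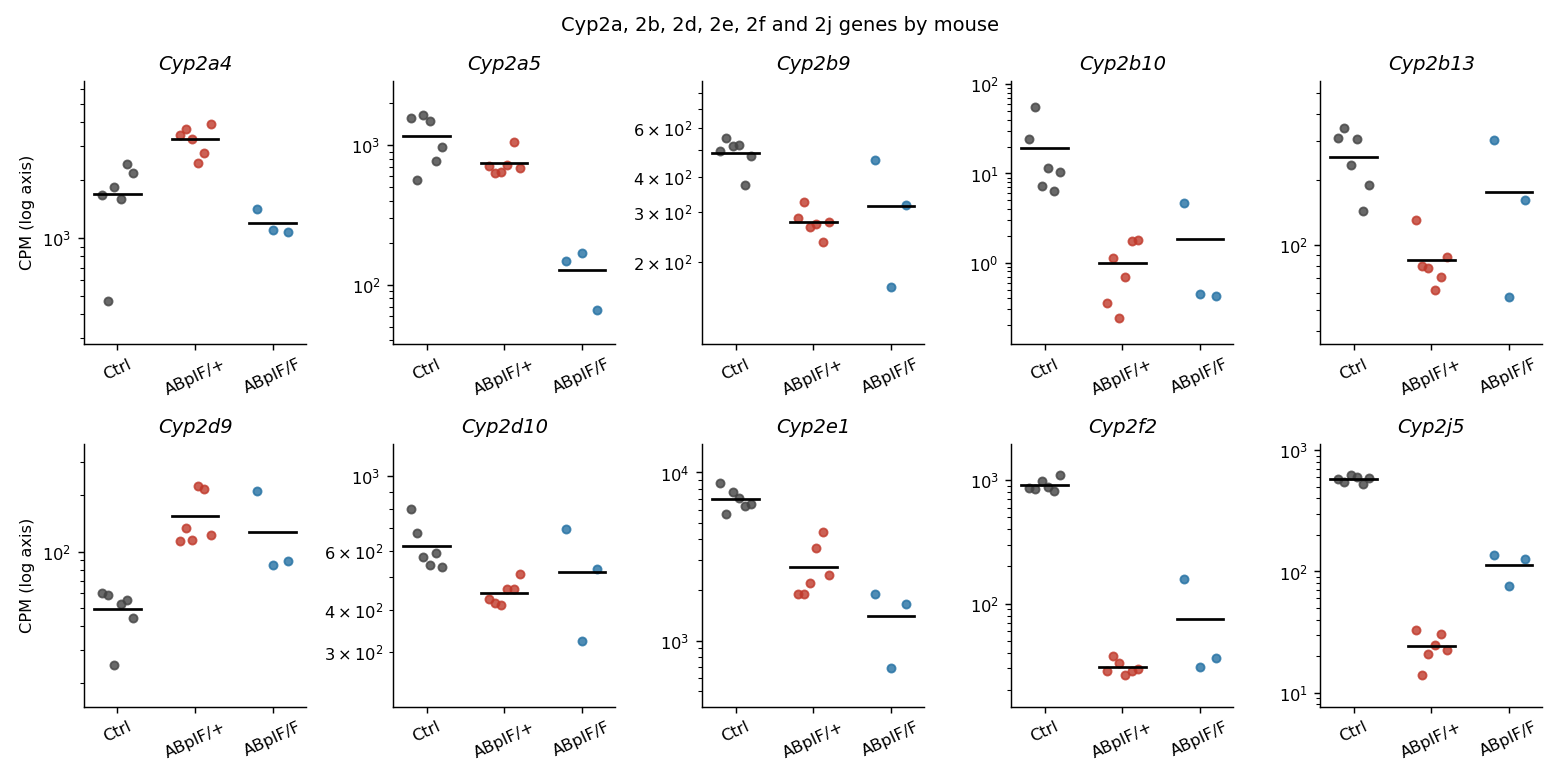
Scaled counts (CPM, log axis, own range per panel) of the 10 genes in each mouse, 1 point per mouse, with the group mean as a bar (Ctrl n = 6, ABpIF/+ n = 6, ABpIF/F n = 3). Cyp2f2 and Cyp2j5 fall in both ABpI groups, Cyp2d9 is higher in both, and Cyp2a4, not called in either comparison with Ctrl, has every ABpIF/+ mouse above every Ctrl mouse and the ABpIF/F mice within the Ctrl range.

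Levels of different genes were compared per length, as CPM per kb of exon, with all annotated exons of a gene joined. For Cyp2d9 this length was 2.658 kb, while the transcript with its longest coding stretch has 1712 bases. Its values per kb may therefore be low. In Ctrl livers Cyp2e1 led with 3237 ± 506 (SD, n = 6) CPM per kb, above Cyp2a4 with 977 ± 390 CPM per kb in every mouse. Cyp2a5 (561), Cyp2f2 (453) and Cyp2d10 (377 CPM per kb) followed, each overlapping its neighbor in that order. Cyp2b9 (261) and Cyp2j5 (246 CPM per kb) were next and overlapped each other, then Cyp2b13 (136), Cyp2d9 (18.5) and Cyp2b10 (9.09 CPM per kb), of which the last pair overlapped. In ABpIF/+ livers Cyp2a4 came first (1876 ± 320 CPM per kb), ahead of Cyp2e1 (1272 ± 480 CPM per kb), though some mice overlapped. Cyp2f2 dropped to the eighth place there (15.1 CPM per kb) and Cyp2j5 to the ninth (10.3 CPM per kb), and these overlapped too. In ABpIF/F livers Cyp2a4 (690 ± 108) and Cyp2e1 (652 ± 293 CPM per kb) did not differ beyond their spread, and Cyp2b10 remained last (0.879 CPM per kb).

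Cyp2f2, which oxidizes naphthalene in mouse lung and liver and marks periportal hepatocytes, fell in both comparisons with Ctrl. It lies at chr7:27119909-27133660 (mm10). Ctrl mice had 814, 849, 870, 887, 992 and 1093 CPM. ABpIF/+ mice had 26.4, 28.5, 28.7, 29.5, 32.9 and 37.7 CPM, a narrow range far below every Ctrl mouse. The group was 30.0-fold lower, or -4.91 on the log2 scale (standard error 0.35, edgeR adjusted p = 3.70e-08). ABpIF/F mice had 30.9, 36.0 and 158 CPM, so that 2 of them sat inside the ABpIF/+ range and BG183 stood apart, still below Ctrl. Their log2 fold change vs Ctrl was -3.61 (standard error 0.45, adjusted p = 3.02e-05), and -4.78 without BG183. The difference between the ABpI groups (log2 fold change -1.29, adjusted p = 0.0187) missed the threshold and was -0.13 without BG183. With all mice it was called by DESeq2, with scaling by library totals alone, among genes passing filterByExpr, without robust estimation and at an adjusted p under 0.05.

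Cyp2j5, an arachidonic acid epoxygenase, was called in all 3 comparisons. Its gene lies at chr4:96628773-96664154 on the minus strand. Ctrl livers were close to one another, with 523, 544, 575, 594, 602 and 623 CPM. In ABpIF/+ livers 13.9, 20.9, 22.4, 24.6, 30.6 and 32.9 CPM were left, 23.8-fold less (log2 fold change -4.57, standard error 0.20, edgeR adjusted p = 2.51e-13). The ABpIF/F mice, with 75.9, 127 and 136 CPM, lay between both groups without touching either. They were 5.11-fold lower than Ctrl (log2 fold change -2.35, standard error 0.24, adjusted p = 2.67e-07). ABpIF/+ was below ABpIF/F by -2.22 on the log2 scale (standard error 0.20, adjusted p = 3.20e-07). Leaving out any one mouse kept each of these calls, with -2.44 to -2.06 for the last. With the strain label as a term, Cyp2j5 (-4.57) and Cyp2f2 (-4.83) kept their calls in ABpIF/+ vs Ctrl, and the Ctrl mouse BG3, which shares the strain label of the ABpI mice, had 575 and 870 CPM of them, within the range of the other Ctrl mice.

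Cyp2e1, the ethanol and acetaminophen oxidizing enzyme of pericentral hepatocytes, was downregulated in both ABpI groups and was the most abundant of the 10 genes in CPM in Ctrl mice. It lies at chr7:140763739-140774987, far from the cluster described below. Ctrl mice had 5630, 6279, 6536, 7096, 7662 and 8704 CPM. ABpIF/+ mice had 1881, 1896, 2211, 2470, 3575 and 4435 CPM, and ABpIF/F mice 689, 1649 and 1881 CPM. Neither ABpI group reached the lowest Ctrl mouse, and the highest ABpIF/F mouse lay just below the lowest ABpIF/+ mouse. Cyp2e1 changed by -1.35 on the log2 scale in ABpIF/+ vs Ctrl (standard error 0.24, edgeR adjusted p = 0.000187), 2.54-fold lower. It was -2.31 in ABpIF/F vs Ctrl (standard error 0.33, adjusted p = 2.72e-05), 4.97-fold lower. Between the ABpI groups it was 0.96 (standard error 0.30, adjusted p = 0.0299), which was not called.

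Other pericentral genes were counted beside Cyp2e1. Of 20 listed, 0 rose and 13 fell in ABpIF/+ vs Ctrl (median log2 fold change -1.45), and 1 rose and 11 fell in ABpIF/F vs Ctrl (median -1.64). Glul, glutamine synthetase of the innermost hepatocytes, went from 1092 ± 127 (SD, n = 6) CPM in Ctrl to 246 ± 58.0 in ABpIF/+ and 187 ± 117 (n = 3) in ABpIF/F, and was called in both. The ammonium transporter gene Rhbg (log2 fold change -3.19) and Lgr5 (-2.78) were among the largest falls in ABpIF/+. Axin2, a Wnt target, fell in ABpIF/+ (-1.37, edgeR adjusted p = 0.00111), and its value in ABpIF/F vs Ctrl was -1.29 (adjusted p = 0.0171). Of 17 periportal genes without Cyp2f2, 4 rose and 3 fell in ABpIF/+ (median 0.09), and 2 rose and 5 fell in ABpIF/F (median -0.51). Etnppl (-3.18 and -4.86) and Igf1 (-1.11 and -1.59) of this list fell in both, as Cyp2f2 did, and the lipid droplet enzyme gene Hsd17b13 rose in both (2.35 and 1.23).

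**Figure D2:**
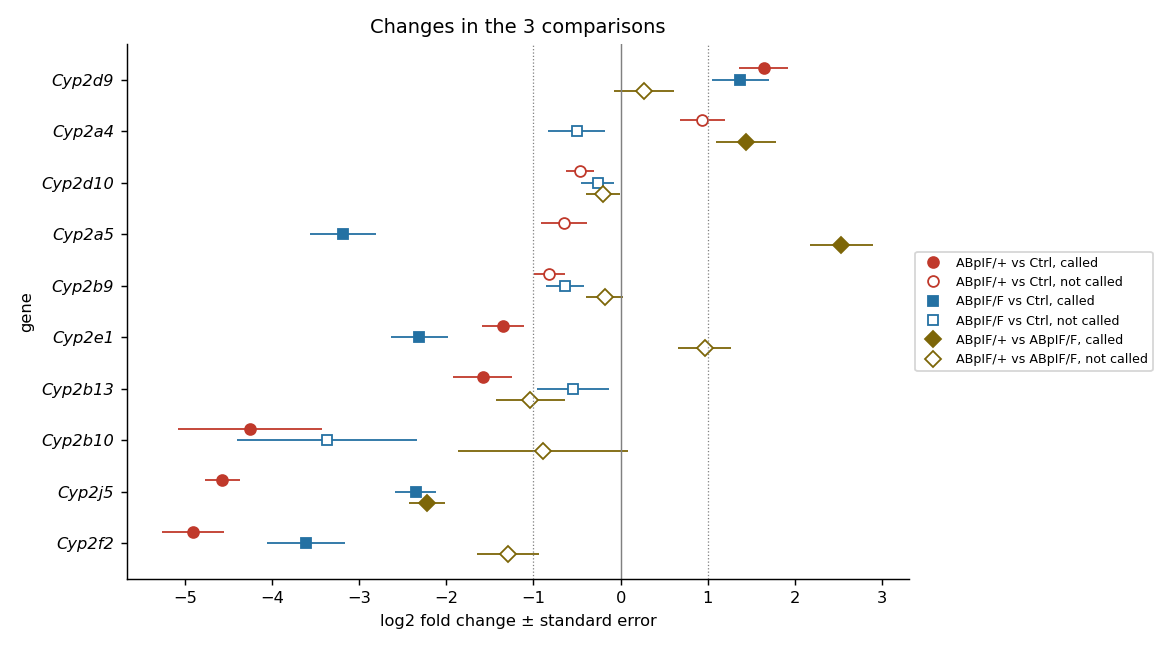
Log2 fold change with its standard error (edgeR) of the 10 genes in the 3 comparisons. Filled symbols mark called genes (adjusted p below 0.01 and a 2-fold change, dotted lines), and open symbols the others. Cyp2j5 is filled in all 3 comparisons, and Cyp2a5 is filled in the 2 that involve ABpIF/F.

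The Cyp2b genes were lower in ABpIF/+ livers, by very different amounts. Cyp2b10, which drugs such as phenobarbital induce through CAR, had 6.31, 7.21, 10.5, 11.5, 24.4 and 55.1 CPM in Ctrl mice. In ABpIF/+ mice it had 0.242, 0.352, 0.696, 1.13, 1.77 and 1.81 CPM, from 6 to 49 reads per mouse, and groups did not overlap. Cyp2b10 was thus 19.1-fold lower, or -4.26 on the log2 scale (standard error 0.82, edgeR adjusted p = 0.00166). Without malpa387, the Ctrl mouse at 55.1 CPM, it was -3.58 and still called. With the strain label as a term it was -4.61 (adjusted p = 0.0209) and was not called. ABpIF/F mice had 0.429, 0.443 and 4.70 CPM, all below Ctrl, with BG183 again the highest. Their log2 fold change vs Ctrl of -3.37 (standard error 1.03, adjusted p = 0.0402) was not called. Without BG183 it was -5.44 (adjusted p = 0.00898) and past the threshold, without malpa387 it was -2.69, and over the fits that left out 1 mouse the adjusted p reached 0.168. DESeq2 (adjusted p = 0.00111) and edgeR without robust estimation (adjusted p = 0.00515) called it with all mice. Between the ABpI groups the log2 fold change was -0.89 (adjusted p = 0.713), and 1.18 without BG183.

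Cyp2b13 and Cyp2b9, both known as female-biased, are neighbors of Cyp2b10. Cyp2b13 had 143, 189, 232, 307, 311 and 347 CPM in Ctrl mice and 62.0, 71.0, 78.0, 79.9, 88.2 and 131 CPM in ABpIF/+ mice, again without overlap. It fell 3.00-fold (log2 fold change -1.58, standard error 0.34, edgeR adjusted p = 0.00283), and with the strain label as a term it was -1.87 (adjusted p = 0.0547) and was not called. The ABpIF/F mice had 57.3, 161 and 305 CPM. This spread covers every ABpIF/+ mouse and the Ctrl mice at 143, 189 and 232 CPM, but not those at 307, 311 and 347 CPM. The log2 fold change of Cyp2b13 in ABpIF/F vs Ctrl was -0.55 (adjusted p = 0.499). It ran from -1.22 (without BG183) to -0.13 (without BG38) when 1 mouse was left out, and was called in none of these fits. Cyp2b9 had 376 to 552 CPM (median 505) in Ctrl mice and 235 to 326 CPM (median 275) in ABpIF/+ mice. Its log2 fold change of -0.82 (standard error 0.18, adjusted p = 0.00114) passed the p threshold and not the 2-fold one, although the groups did not overlap. With the strain label as a term it was -0.84 (adjusted p = 0.0931) and passed neither. ABpIF/F mice had 162, 319 and 462 CPM of Cyp2b9 (log2 fold change -0.64, adjusted p = 0.0517). In the same mouse order Cyp2b9 and Cyp2b13 were lowest in BG38 and highest in BG183.

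The xenobiotic receptors and their other targets were counted beside the Cyp2b genes. Nr1i3 (CAR) had 102 to 185 CPM in Ctrl, 62.1 to 118 in ABpIF/+ and 31.7 to 48.7 in ABpIF/F mice. It was called in both comparisons with ABpIF/F (log2 fold change -1.64 vs Ctrl, edgeR adjusted p = 6.53e-05, and 1.06 in ABpIF/+ vs ABpIF/F, adjusted p = 0.00327), and was at -0.57 in ABpIF/+ vs Ctrl (adjusted p = 0.0260). Nr1i2, which encodes the receptor PXR, was at -0.42 and -0.88 vs Ctrl, under 2-fold. Of 16 other CAR and PXR target genes, 0 rose and 8 fell in ABpIF/+ vs Ctrl (median -1.37) and 0 rose and 8 fell in ABpIF/F vs Ctrl (median -0.98). Examples are the retinal dehydrogenase gene Aldh1a1 (-2.96 in ABpIF/+) and Cyp2c54 (-2.59 in ABpIF/F). Among 18 xenobiotic receptors and liver transcription factors only Esr1, the estrogen receptor, was called in ABpIF/+ vs Ctrl (-1.90). Ppara and Nr1i3 were called in ABpIF/F vs Ctrl, and Hnf4a was not called in any comparison.

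**Figure D3:**
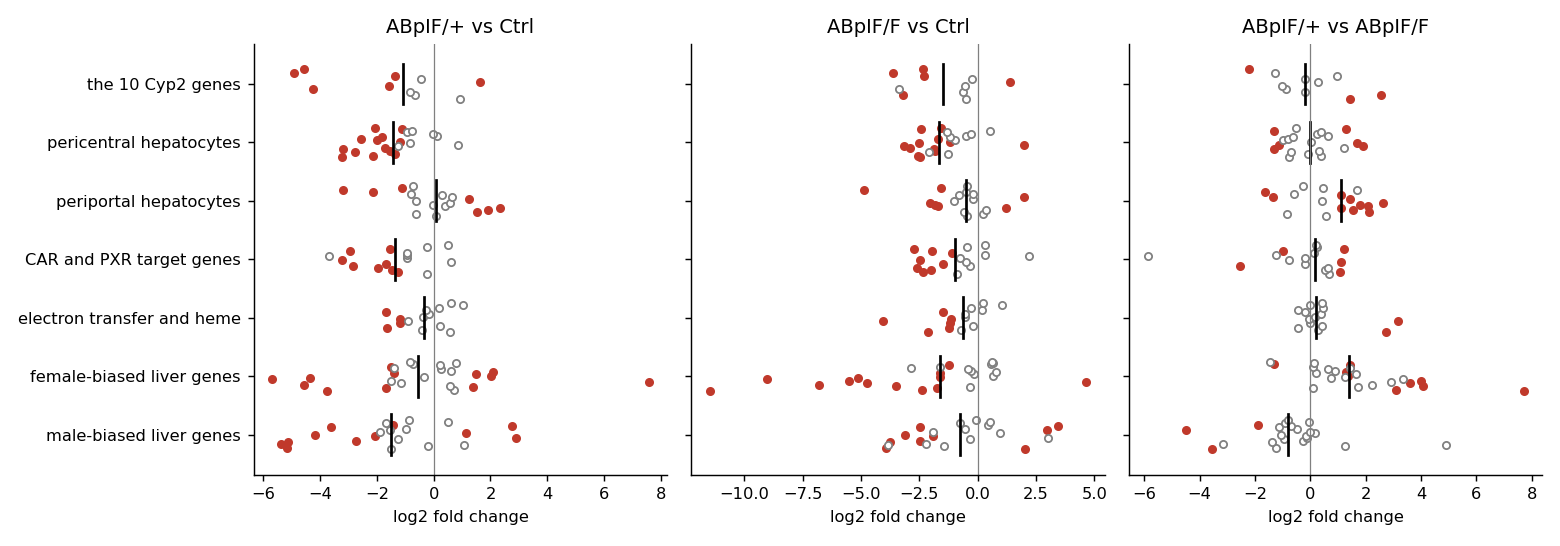
Log2 fold change of each gene (points, filled red where called) of the 10 Cyp2 genes and of 6 context lists in the 3 comparisons, with the median of each list as a bar. Medians of the pericentral list are -1.45 and -1.64 vs Ctrl, those of the CAR and PXR targets -1.37 and -0.98, and those of the periportal list 0.09 and -0.51.

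Cyp2a4 (steroid 15 alpha-hydroxylase) and Cyp2a5 (coumarin 7-hydroxylase, which also oxidizes nicotine) lie at chr7:26307169-26315088 and chr7:26835305-26843548, both on the plus strand. Their coding sequences differ at 23 of 1485 bases (98.5% identity). The stretch of 60 bases from coding position 596 to 655 holds 4 of these differences, and is shown from the mm10 reference because reads over such bases tell the copies apart. Capitals mark the bases that differ.
Cyp2a4: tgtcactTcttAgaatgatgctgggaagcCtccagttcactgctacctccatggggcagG
Cyp2a5: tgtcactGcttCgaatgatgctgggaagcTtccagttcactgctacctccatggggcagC
Of the 150-base windows of its transcript, 4.22% of those of Cyp2a4 and 5.79% of those of Cyp2a5 also occur unchanged in another Cyp2 transcript. A read from such a window cannot be assigned by its own sequence alone. The counts of either gene could therefore hold some reads of the other. Libraries were read from both ends, so a mate outside the window can still place a pair.

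The genes did not follow each other. Cyp2a4 had 466, 1603, 1673, 1848, 2182 and 2416 CPM in Ctrl mice, 2458, 2777, 3268, 3433, 3681 and 3941 CPM in ABpIF/+ mice and 1078, 1102 and 1416 CPM in ABpIF/F mice. Every ABpIF/+ mouse was above every Ctrl mouse, and the ABpIF/F mice lay inside the Ctrl range, between malpa387 (466 CPM) and the rest. On the log2 scale the difference was 0.94 in ABpIF/+ vs Ctrl (standard error 0.26, edgeR adjusted p = 0.0112, not called) and -0.50 in ABpIF/F vs Ctrl (standard error 0.33, adjusted p = 0.386). In ABpIF/+ vs ABpIF/F it was 1.44 (standard error 0.34, adjusted p = 0.00550) and was called. This call was lost in 6 of the 15 fits that left out 1 mouse, where the adjusted p was 0.0485 at most, and with scaling by library totals alone (1.26, adjusted p = 0.0164).

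Cyp2a5 had 567, 766, 969, 1477, 1561 and 1633 CPM in Ctrl mice and 627, 637, 687, 709, 726 and 1050 CPM in ABpIF/+ mice, which overlapped (log2 fold change -0.65, standard error 0.26, edgeR adjusted p = 0.0816). The ABpIF/F mice, with 66.4, 147 and 169 CPM, were below all other mice. They were 9.12-fold lower than Ctrl (log2 fold change -3.19, standard error 0.38, adjusted p = 9.68e-06) and 5.80-fold lower than ABpIF/+ (2.54, standard error 0.37, adjusted p = 0.000111). The ratio of Cyp2a4 to Cyp2a5 counts was 0.822 to 3.15 in Ctrl (median 1.11), 2.64 to 5.87 in ABpIF/+ (median 4.98) and 6.53 to 16.2 in ABpIF/F mice (median 9.63). Thus the ratio separated ABpIF/F from both other groups, which touched in malpa459 and BG55. In the sum of both genes, reads misassigned between them do not matter, while reads left uncounted would still be missing. The log2 fold change of the sum was 0.48 (edgeR adjusted p = 0.106), -1.11 (0.00538) and 1.59 (0.000318) in the order ABpIF/+ vs Ctrl, ABpIF/F vs Ctrl and ABpIF/+ vs ABpIF/F.

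Clock genes were counted beside the Cyp2a genes. Of 17 measured, 4 rose and 0 fell in ABpIF/+ vs Ctrl, where neither Cyp2a gene was called, and 0 rose and 5 fell in ABpIF/F vs Ctrl, where Cyp2a5 fell. In ABpIF/+ vs ABpIF/F, where both Cyp2a genes were called higher in ABpIF/+, 6 clock genes were higher and 1 lower, and groups did not overlap in 13. A score of 17 clock genes (first principal component of log2 CPM) was -11.07, -7.80 and -5.81 in the ABpIF/F mice and -8.58 in the Ctrl mouse malpa387, against 1.96 to 3.82 in the other 11 mice. The sign of the score was set so that it rises with Dbp. Among Ctrl mice malpa387 was the lowest in Cyp2a4, Cyp2a5 and Cyp2e1 and the highest in Cyp2b10, Cyp2b9 and Cyp2b13. Dbp, a clock output factor, had 3.69 CPM in malpa387 and 0.893, 9.67 and 32.9 CPM in the ABpIF/F mice, and between 58.2 and 141 CPM in the other mice. Its relatives Tef and Hlf fell in ABpIF/F vs Ctrl (log2 fold change -2.03 and -1.04, both edgeR adjusted p = 0.00239). The times at which livers were taken are not given in the sources used here.

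With the clock score as a covariate, Cyp2a4 turned direction, to 1.10 in ABpIF/F vs Ctrl (edgeR adjusted p = 0.0797) and -0.35 in ABpIF/+ vs ABpIF/F (adjusted p = 0.833). Cyp2a5 stayed called in ABpIF/F vs Ctrl (-2.14, adjusted p = 0.000662) and lost its call in ABpIF/+ vs ABpIF/F (1.28, adjusted p = 0.0853). In ABpIF/+ vs Ctrl, where malpa387 alone has a low score, Cyp2a4 was 0.74 (adjusted p = 0.00351) and Cyp2a5 -0.86 (adjusted p = 0.00400) with the covariate. The score nearly separates ABpIF/F from the other mice, so its part and that of genotype in these differences cannot be told apart.

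**Figure D4:**
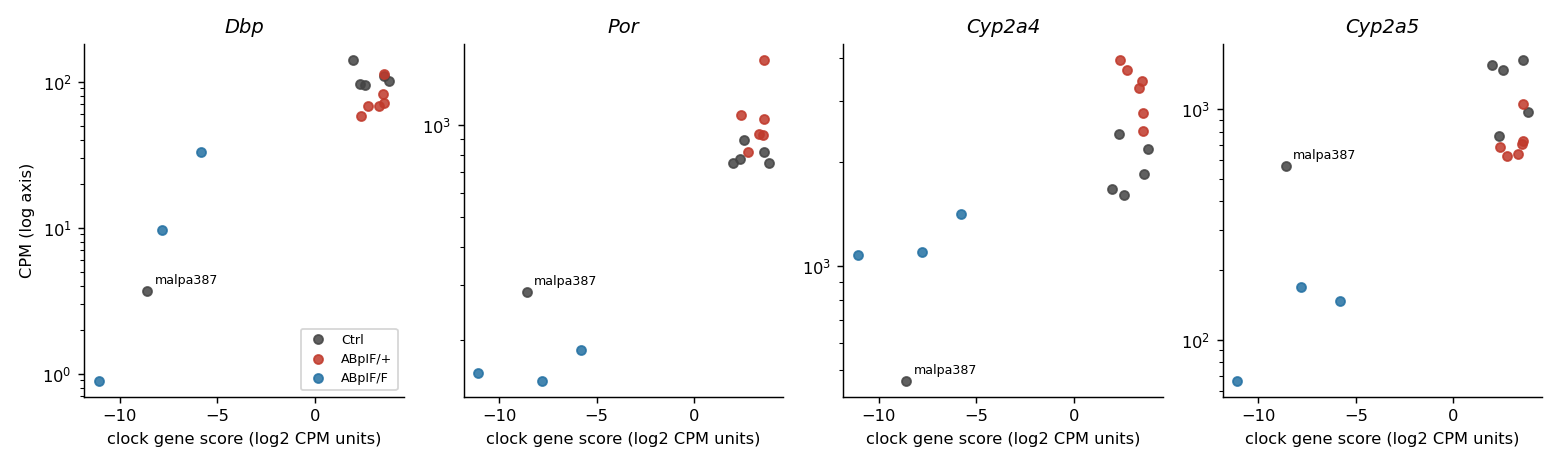
CPM (log axis) of Dbp, Por, Cyp2a4 and Cyp2a5 against the clock gene score of each mouse (first principal component of 17 clock genes, log2 CPM units), 1 point per mouse, colored by group. The sign of the score was set to rise with Dbp, so the Dbp panel is no check of the score. The Ctrl mouse malpa387, at a score of -8.58, lies among the ABpIF/F mice on the horizontal axis, and is the lowest Ctrl mouse in all 4 panels.

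Promoters were read from RefSeq on GRCm38.p6 (mm10), 250 bases before to 50 after each start, and all 10 genes matched. The letters TTATGCAA, a D-box type match that DBP, TEF and HLF as well as C/EBP factors are known to bind, were searched on both strands. They occurred in 3 of the 10 promoters (Cyp2a4, Cyp2a5 and Cyp2b10) and in 0.743% of 32851 promoters. Cyp2b19 and Cyp2b23 of the same cluster, below 1 CPM in every group, carry the match as well. Stretches of 40 bases around it in the 3 genes are shown on the gene strand, where the match reads TTGCATAA, because in malpa387 the Cyp2a pair was low and Cyp2b10 high among Ctrl mice. Capitals mark the match, and in Cyp2b9 and Cyp2b13 the aligned letters.
Cyp2a4: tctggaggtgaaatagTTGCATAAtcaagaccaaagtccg
Cyp2a5: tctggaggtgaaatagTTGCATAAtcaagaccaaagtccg
Cyp2b10: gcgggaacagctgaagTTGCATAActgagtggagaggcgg
Cyp2b9: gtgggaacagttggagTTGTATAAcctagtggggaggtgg
Cyp2b13: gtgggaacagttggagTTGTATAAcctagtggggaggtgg
The match spans -70 to -63 from the start of Cyp2a4, -71 to -64 in Cyp2a5 and -58 to -51 in Cyp2b10. The promoters of Cyp2a4 and Cyp2a5 are 97.7% identical and those of Cyp2b9 and Cyp2b13 99.3%, so these genes share a sequence and are not separate observations. Other letters searched were TTACGTAA (0.119% of all promoters), the STAT5 type TTCNNNGAA (8.30%), the HNF4 type CAAAGTCCA (0.475%) and the TCF type ATCAAAG (3.73%), each in 0 of the 10. AGGTCA, a nuclear receptor motif, was in 6 of the 10 (16.3% of all), TATAAA in 6 (13.6%) and CCAAT in 4 (37.4%). Only exact letters were counted, and the stretches of Cyp2a4 and Cyp2a5 shown above end in the HNF4 type with its last base changed. A match describes letters in this window, and no binding was measured.

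Cyp2d9, a testosterone 16 alpha-hydroxylase, was the only gene of the 10 that rose in both ABpI groups. It lies at chr15:82433437-82456845, near Cyp2d10 at chr15:82402846-82407195 on the other strand. Ctrl mice had 24.9, 44.4, 52.2, 55.3, 58.6 and 60.3 CPM and ABpIF/+ mice 114, 115, 123, 133, 216 and 224 CPM. ABpIF/F mice had 84.8, 88.7 and 210 CPM, above every Ctrl mouse and overlapping ABpIF/+. Cyp2d9 changed by 1.65 on the log2 scale in ABpIF/+ vs Ctrl (standard error 0.28, edgeR adjusted p = 0.000375), 3.13-fold higher. In ABpIF/F vs Ctrl it was 1.38 (standard error 0.33, adjusted p = 0.00746), and without BG183 it was 0.82 (adjusted p = 0.0762). This call was lost in 9 of the 15 fits that left out 1 mouse, with the clock score described above as a covariate (1.36, adjusted p = 0.171) and with only the groups compared in the fit (1.37, adjusted p = 0.0147). With the strain label as a term, which sets the ABpI mice against BG3 alone, neither was called (1.36, adjusted p = 0.208, and 1.08, adjusted p = 0.390), and BG3 had the highest Ctrl value.

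Cyp2d10, whose coding sequence is 92.5% identical to that of Cyp2d9, had 539 to 797 CPM (median 585) in Ctrl and 414 to 513 CPM (median 446) in ABpIF/+ mice. ABpIF/F mice had 324, 531 and 698 CPM, the widest spread of the groups. Its log2 fold changes of -0.46 (edgeR adjusted p = 0.0317), -0.26 (0.470) and -0.20 (0.621) were not called. The ratio of Cyp2d9 to Cyp2d10 counts was 0.0431 to 0.0961 in Ctrl, 0.240 to 0.486 in ABpIF/+ and 0.167 to 0.301 in ABpIF/F mice, so each ABpI mouse exceeded each Ctrl mouse. In 150-base windows 6.40% of Cyp2d10 and 1.54% of Cyp2d9 are shared with other Cyp2 transcripts. The sum of both genes was not called (log2 fold change -0.15, -0.06 and -0.09, with adjusted p of 0.660, 1 and 1).

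Of the 10 genes 6 lie in 1 cluster, chr7:25897620-27133660, of 1.24 Mb with 16 protein-coding genes, in the order Cyp2b10, Cyp2b13, Cyp2b9, Cyp2a4, Cyp2b23, Cyp2b19, Cyp2g1, Cyp2a5, Cyp2a22, Cyp2a12 and Cyp2f2 for the P450 genes. Of the 16, 9 had at least 1 CPM in a group and 7 did not, among them Cyp2b23 and Cyp2b19. Neighbors had different values. In ABpIF/+ vs Ctrl Cyp2a12, a testosterone hydroxylase, was at 0.03 (edgeR adjusted p = 1), next to Cyp2f2 at -4.91. In ABpIF/F vs Ctrl Cyp2a12 was at -0.65 (adjusted p = 0.0103) and Cyp2g1, known from the olfactory mucosa, fell (-2.79, adjusted p = 0.00152). Cyp2a22 was 66.7 ± 41.2 (SD, n = 6) CPM in Ctrl and 5.81 ± 3.94 in ABpIF/+ livers (log2 fold change -3.52, adjusted p = 0.0165, not called).

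**Figure D5:**
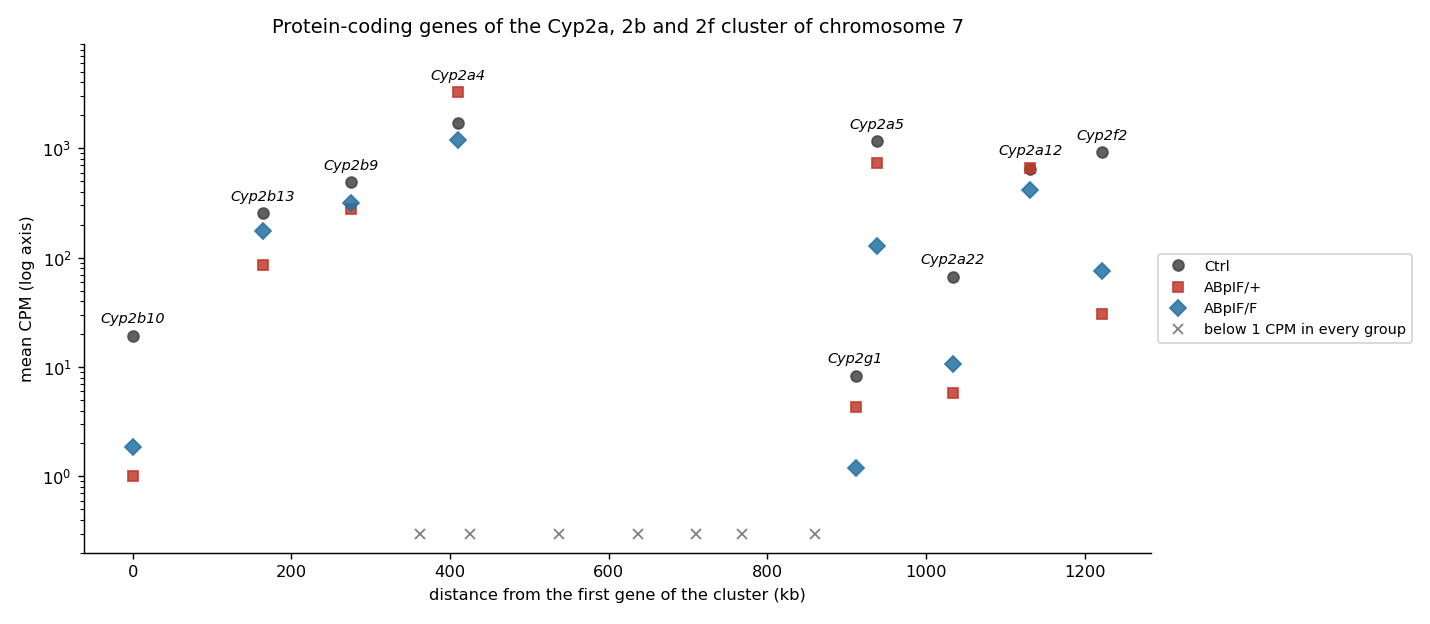
Mean CPM (log axis) of the 16 protein-coding genes of the cluster by group, against the distance in kb from the first gene, Cyp2b10. Crosses mark 7 genes below 1 CPM in every group. Cyp2a12 is at 651 CPM in Ctrl and 666 CPM in ABpIF/+, while Cyp2f2 next to it is 30.0-fold lower in ABpIF/+.

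Among the 18 other genes of the subfamilies, 1 rose and 3 fell in ABpIF/+ vs Ctrl, and 1 fell in each of the other comparisons. Cyp2d13 was the one called throughout, at 218 ± 33.4 (SD, n = 6) CPM in Ctrl, 48.1 ± 13.2 in ABpIF/+ and 104 ± 42.6 (n = 3) in ABpIF/F livers. As with Cyp2j5, the ABpIF/F mean lay between those of the other groups (log2 fold change -2.18, -1.07 and -1.11). Cyp2d40 (-1.75) and Cyp2d37-ps (-1.01) also fell in ABpIF/+ vs Ctrl, and Cyp2d11 rose (1.62) from a level of 0.433 CPM. Relatives that were expressed and not called anywhere included Cyp2d26 (971, 1149 and 1107 CPM in Ctrl, ABpIF/+ and ABpIF/F), Cyp2d22 and Cyp2j6. The last had log2 fold changes of -0.24 and 0.07 vs Ctrl, where Cyp2j5, in the same stretch of chromosome 4, had -4.57 and -2.35. Cyp2j11 and Cyp2j12 had 0 counts in all mice.

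The partners of P450 enzymes were counted as well. Por, the reductase that feeds them electrons, had 286 to 896 CPM in Ctrl, 818 to 1626 in ABpIF/+ and 147, 156 and 185 CPM in ABpIF/F mice. ABpIF/F was below all others (log2 fold change -2.13 vs Ctrl, edgeR adjusted p = 1.93e-05), and the lowest Ctrl mouse was malpa387. In ABpIF/+ vs Ctrl Por was at 0.59 (adjusted p = 0.0485). Of 14 genes of electron transfer and heme synthesis, 0 rose and 4 fell in ABpIF/+ vs Ctrl (Cpox, Cyb5b, Pgrmc1 and Alad), and 0 rose and 6 fell in ABpIF/F vs Ctrl, the same 4 with Alas1 and Por. Alas1, the first enzyme of heme synthesis, was 46.9 ± 5.74 (SD, n = 3) CPM in ABpIF/F against 789 ± 474 (n = 6) in Ctrl livers (log2 fold change -4.07).

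Sex-biased genes other than the 10 moved in both directions. Of 24 female-biased genes 5 rose and 7 fell in ABpIF/+ vs Ctrl, and 1 rose and 12 fell in ABpIF/F vs Ctrl. Of 21 male-biased genes 3 rose and 8 fell in ABpIF/+, and 3 rose and 6 fell in ABpIF/F. Cyp3a41a and Sult2a1, both female-biased, fell in ABpIF/+ (-5.68 and -4.58), as did male-biased Slco1a1 (-5.15), while male-biased Cib3 rose (2.74) as Cyp2d9 did. Female-biased Cyp2a4 was higher in each ABpIF/+ mouse than in each Ctrl mouse, and female-biased Cyp2b13 lower. Among 11 genes of growth hormone signalling 2 rose and 3 fell in ABpIF/+ vs Ctrl, and 0 rose and 3 fell in ABpIF/F vs Ctrl. The receptor gene Ghr fell in both (-1.50 and -1.89).

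In whole liver RNA fewer cells of a type and less RNA per cell cannot be told apart, so marker genes of the other cells are given beside the P450 genes. Summed over 17 hepatocyte genes, most of all Alb, the level was 158804 ± 15414 (SD, n = 6) CPM in Ctrl, 303309 ± 31028 in ABpIF/+ and 273254 ± 60895 (n = 3) in ABpIF/F livers. Of the 17, 5 rose and 0 fell in ABpIF/+ vs Ctrl (median log2 fold change 0.72), and 5 rose and 2 fell in ABpIF/F vs Ctrl (median 0.02). Of 10 stellate cell and fibroblast markers 8 fell in ABpIF/+ vs Ctrl and 0 in ABpIF/F vs Ctrl, where 1 rose, and their sum, led by Dcn, was 254, 86.3 and 319 CPM. Cholangiocyte markers, led by Spp1, summed to 74.8, 128 and 779 CPM, and 6 of 10 rose in ABpIF/F vs Ctrl, while 2 rose and 2 fell in ABpIF/+ vs Ctrl. Macrophage markers, led by Clec4f, summed to 436, 213 and 561 CPM, with 5 of 10 lower and 1 higher in ABpIF/+ vs Ctrl and 1 higher in ABpIF/F vs Ctrl. Endothelial markers, led by Eng, summed to 298, 179 and 324 CPM, with 2 of 10 lower in ABpIF/+ and 1 higher in ABpIF/F vs Ctrl.

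Lymphocyte markers, led by Ptprc, summed to 15.8, 5.78 and 29.7 CPM, with 4 of 10 lower in ABpIF/+ and 1 higher in ABpIF/F vs Ctrl. Neutrophil markers, led by S100a9, summed to 3.54, 5.49 and 47.7 CPM, with 1 of 10 higher in ABpIF/+ and 9 higher in ABpIF/F vs Ctrl. The ABpIF/F mice differed widely (5.06, 38.0 and 100.1 CPM), and without BG38 their mean was 21.5 CPM. Acute phase genes, led by Hp, summed to 2532, 6959 and 7748 CPM, with 3 of 12 higher in ABpIF/+ and 2 higher in ABpIF/F vs Ctrl. Without BG90, at 13861 CPM, the ABpIF/F mean was 4692 CPM, below that of ABpIF/+. Red blood cell genes summed to 73.5, 167 and 86.3 CPM, and 1 of 6, Hba-a1, rose in ABpIF/+ vs Ctrl. Proliferation genes, led by Mki67, summed to 23.6, 8.37 and 30.6 CPM, and 7 of 10 fell in ABpIF/+ vs Ctrl. No marker of these cell types was at 0 in every mouse, and absence within single groups was not counted. The part of other cells in the P450 differences was not tested.

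Genes with the most similar pattern were searched by Pearson's r of log2 CPM over the 15 mice among 9531 genes averaging 5 CPM or more. These values describe mice in 3 groups that share libraries and group differences. For Cyp2f2 they were Srr (0.993), Mup16 (0.990) and Cat (0.989), and for Cyp2e1 Dmgdh (0.973), Cyp2c54 (0.972) and Cyp2c37 (0.966). For Cyp2b10 they were Wdr45 (0.944), Hibadh (0.941) and Csrp3 (0.939), and for Cyp2d9 Inafm1 (0.931), Ticam1 (0.924) and Col18a1 (0.921). For Cyp2j5 they were Slc22a30 (0.993), Akr1c6 (0.986) and Cyp2c23 (0.984), for Cyp2a5 Amigo2 (0.959), Akr1c19 (0.949) and Ilrun (0.933), and for Cyp2a4 Gas2l3 (0.907), Adarb1 (0.906) and Map2k6 (0.901). For Cyp2b9 they were Timd2, BC024386 and Cdadc1 (0.936 each), and for Cyp2b13 Nit2 (0.946), Adra1b (0.940) and 2310001H17Rik (0.934). Within the 10 genes r was 0.940 for Cyp2f2 with Cyp2j5, 0.917 for Cyp2b13 with Cyp2b9, 0.376 for Cyp2a4 with Cyp2a5 and -0.314 for Cyp2d10 with Cyp2d9.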

How the data were processed

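Total RNA from frozen liver went into stranded mRNA libraries, read from both ends. The authors aligned reads with HISAT2 to mm10 and deposited counts per gene from featureCounts 2.0.8 (version per the labels), not normalized. Annotation and strand setting are not given in the sources used here. The table has 1 column per mouse (15), whereas 23 samples are listed, 8 mice being named by 2 samples. A second deposited table held equal counts in 10 columns, and 5 of its columns were not used. Deposited fold changes and p-values of the authors' comparisons were not used.

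Counts of all 27179 genes were fitted in R 4.3.3 with edgeR 4.0.16 (TMM, robust legacy quasi-likelihood, 3 groups in 1 fit), with Benjamini-Hochberg adjustment over all genes and thresholds as in the report. Log2 CPM for scores and correlations used a prior count of 2. On simulated counts of 20380 genes 195 of 200 genes changed 4-fold were recovered for ABpIF/+ vs Ctrl and 191 of 200 for ABpIF/F vs Ctrl, with 0 false calls. The changed genes were drawn above a minimum expected count, and both ABpI groups had the same change and the same dispersion. Recovery of rarer genes, of differences between the ABpI groups and under a wider ABpIF/F spread was not tested. DESeq2 1.42.0 was an alternative. Positions and exon lengths came from GENCODE M21 (mm10). The 10 genes and the lists were chosen with earlier results of these data known. All 10 genes were named, and of each list up to 3 called genes per comparison and direction with the largest change and at least 5 CPM, besides fixed genes such as Por, Dbp and Glul. The genes most similar in pattern to Cyp2d10 are not reported here.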

Additional observations from a re-analysis of the deposited data

Results flagged for a closer look

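Each of the 10 genes was checked in the 6 Ctrl and the 6 ABpIF/+ mice for a mouse far from the rest, by the gap to the nearest mouse divided by the group's range of log2 CPM. Of the 20 groups tested 3 exceeded the critical value of 0.625, where chance gives about 1 in 20. The Ctrl mouse malpa387 was low in Cyp2a4 (ratio 0.751), at 466 CPM. The ABpIF/+ mouse BG55 was high in Cyp2a5 (0.714), at 1050 CPM. The Ctrl mouse malpa454 was low in Cyp2d9 (0.654), at 24.9 CPM.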

How the results depend on the processing

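Of 810 alternative results for single genes, 762 kept direction and side of the threshold, and 6 changed direction. Those with the 4-fold threshold or an adjusted p under 0.05 read the main fit again, so their direction could not change. The others were refits. No paired analysis was possible because the columns carry mouse names and no replicate number shared between groups. Cyp2f2 and Cyp2j5 were called vs Ctrl in every setting run, as was Cyp2e1 except with the 4-fold threshold in ABpIF/+ vs Ctrl.

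With a 4-fold threshold (log2 fold change of 2), ABpIF/+ vs Ctrl had 0 up and 3 down of the 10 genes (1095 of all genes), ABpIF/F vs Ctrl 0 up (856), and ABpIF/+ vs ABpIF/F 1 up (855). Numbers in parentheses are all genes called in either direction, which were 2729, 1883 and 1969 in the main fit, in the same order. With the strain label as a term, ABpIF/+ vs Ctrl had 0 up and 3 down (1357 of all genes) and ABpIF/F vs Ctrl 0 up and 4 down (1148). With the clock score, ABpIF/F vs Ctrl had 0 up and 4 down (626) and ABpIF/+ vs ABpIF/F 0 up and 1 down (143). Cyp2a4 then was 1.10 in ABpIF/F vs Ctrl and -0.35 in ABpIF/+ vs ABpIF/F, and Cyp2b10 was 0.60 in the latter. With only the groups compared in the fit, ABpIF/F vs Ctrl had 0 up (1734). In ABpIF/+ vs ABpIF/F library totals alone gave 1 up and 2 down (2177 of all genes). In the same comparison DESeq2 (2448), filterByExpr (2054), no robust estimation (2052) and an adjusted p under 0.05 (2796) each gave 2 down. Cyp2f2 was the gene added to those down in each of these settings. Library totals shifted the median of all genes of at least 1 CPM by -0.18 in ABpIF/+ vs Ctrl and -0.19 in ABpIF/+ vs ABpIF/F. The cause of these changes was not tested.

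Without 1 mouse each, ABpIF/+ vs Ctrl had 1 to 2 up (2 without malpa459, where Cyp2a4 passed), ABpIF/F vs Ctrl 0 to 1 up, with Cyp2d9 lost in 9 of 15 fits, and 4 to 6 down (6 without BG183, where Cyp2b9 and Cyp2b10 passed), and ABpIF/+ vs ABpIF/F 1 to 2 up and 1 to 3 down (3 without BG38, where Cyp2f2 and Cyp2b13 passed). Counts of all genes ran from 2525 (without BG31) to 2778 (without BG38) in ABpIF/+ vs Ctrl. They ran from 1212 (without BG38) to 2276 (without BG183) in ABpIF/F vs Ctrl and from 1155 (without BG38) to 2048 (without BG183) in ABpIF/+ vs ABpIF/F. In the latter Cyp2b9 ran from -0.49 to 0.20, Cyp2b10 from -1.37 to 1.18 and Cyp2d10 from -0.45 to 0.075, each positive only without BG183. Against the sums of paralogs, single genes turned direction for Cyp2a5 (-0.65) and Cyp2d9 (1.65) in ABpIF/+ vs Ctrl and for Cyp2d9 in ABpIF/F vs Ctrl (1.38) and ABpIF/+ vs ABpIF/F (0.27). Cyp2b9 (-0.82, ABpIF/+ vs Ctrl) and Cyp2a4 (-0.50, ABpIF/F vs Ctrl) were not called where their sums were. Only 3 ABpIF/F mice limit what that group can show.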

Other observations

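Cyp2a22, which lies between Cyp2a5 and Cyp2a12, was nearly missing in 1 mouse of each of 2 groups, seen after its values were examined. The Ctrl mouse malpa454 had 0.318 CPM, where the other 5 Ctrl mice had 47.9 to 124 CPM. The ABpIF/+ mouse BG30 had 0.136 CPM, where the other 5 had 3.47 to 11.1 CPM. In the same mice the neighbor Cyp2a5 was at 1633 and 627 CPM.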
